A study of Mus musculus with 12 samples.

Results

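The TNF superfamily ligands described here are 10 genes, Tnf, Lta, Ltb, Tnfsf4, Tnfsf8, Tnfsf9, Tnfsf10, Tnfsf13b, Tnfsf14 and Tnfsf15, out of 19938 genes measured. A ligand gene was represented by the probe set whose only gene symbol in the platform annotation was its own, and each of the 10 had exactly 1 such probe set. They were measured on 12 Affymetrix Mouse Gene 1.0 ST arrays in microglia, the resident macrophages of the brain, taken from C57BL/6J mouse pups on postnatal day 7 by binding to CD11b beads and kept in culture for 3 days. The arrays fall into 4 groups of 3, treated for 6 h with Aβ42 together with AE1-329, with Aβ42 alone, with AE1-329 alone or with vehicle. Aβ42, the peptide that aggregates in Alzheimer's disease, was given in oligomeric form at 10 µM or replaced by 0.4% DMSO. AE1-329 activates EP4, a receptor of prostaglandin E2, and was given at 100 nM or replaced by 0.001% ethanol. Cells of 3 litters were the replicates, so every group carries the same genotype and culture history and a replicate is a pool of pups from 1 litter.

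TNF superfamily ligands are mostly type II membrane proteins that assemble as trimers and act on the cell surface or, after cleavage, as soluble cytokines. They bind receptors of the TNF receptor superfamily, which signal through TRAF adaptors to NF-kB or, where they carry a death domain, to cell death. Microglia and other macrophages are a major source of TNF in the inflamed brain, and a receptor such as EP4, which couples to Gs and raises cAMP, is known to restrain TNF production in macrophages.

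The values are log2 expression values made by the authors, so 1 unit is a 2-fold difference, and a level is not compared between genes because each probe set binds with its own strength. A change is one group's mean minus another's on that scale, ± its standard error, from limma fitted to all 12 arrays. A gene passed where its p, adjusted by Benjamini-Hochberg over all 19938 genes, was under 0.05, and adjusted p-values below are those of limma. The groups shared 1 estimate of spread, although the median SD of a gene was 0.109 in vehicle and 0.063 to 0.066 elsewhere. Standard errors against vehicle may thus be too small. With only the groups compared in the fit, 970 genes passed for AE1-329 alone (2026 otherwise) and 3947 for Aβ42 alone (5100 otherwise). The ligand genes that passed stayed at 2 and 5. In total 8 of the 10 ligand genes lay below the median of all gene means (7.41), Tnf and Tnfsf9 lay above it, and the signal over background of the dim ones is unknown. That limit also covers Tnfsf9 without Aβ42: its 6 arrays with AE1-329 alone and vehicle lay between 5.75 and 6.70, below that median, so its fall with AE1-329 alone and its fold changes with Aβ42 rest on such values. As a rough check of the labelled cell type, which probe sets of unequal strength can give only loosely, 9 of 9 measured microglia markers lay above that median. So did 3 of 6 astrocyte markers, 2 of 5 neuron and oligodendrocyte markers, 1 of 9 T cell, 1 of 7 B cell, 1 of 6 NK cell and innate lymphoid, 1 of 7 monocyte, dendritic and border macrophage and 1 of 5 endothelial markers, and 0 of 9 neutrophil and mast cell markers. The mean of the 9 microglia markers was 10.19 to 10.26 with both agents, 10.35 to 10.43 with Aβ42 alone, 10.37 to 10.44 with AE1-329 alone and 10.56 to 10.58 in vehicle, so it moved with the treatments, and its part in the results was not tested. Its members went both ways: with Aβ42 alone P2ry12 (-1.43 ± 0.11), Cx3cr1, Itgam and Trem2 fell and Aif1 (0.46 ± 0.07) and Tmem119 (0.33 ± 0.09) rose, and with AE1-329 alone Cx3cr1 (-0.82 ± 0.10), P2ry12 (-0.59 ± 0.11) and Aif1 fell and Itgam (0.18 ± 0.05) rose. Replicate 3 of AE1-329 alone stood apart from its group, with 16 genes at least 1 log2 unit above and 13 at least 1 unit below both other arrays, and so did vehicle replicate 1, with 18 above, and vehicle replicate 3, with 12 below. In bulk RNA such as this, fewer cells of a type and less RNA per cell cannot be told apart.

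Several of the ligand genes lie side by side in the mouse genome. Ltb, Tnf and Lta follow one another on chromosome 17 with 0 protein-coding genes between neighbours, in the class III region of the major histocompatibility complex, in the RefSeq annotation of GRCm38.p6. Tnfsf9, Cd70 and Tnfsf14 form another run on chromosome 17, and Tnfsf15 and Tnfsf8 adjoin each other on chromosome 4. The 250 bases before a RefSeq transcription start of Ltb, Tnf and Lta are shown because Tnf alone of these neighbours passed the test with Aβ42, and those of Tnfsf10 because it changed most of the 10 genes when AE1-329 was added to Aβ42. The sequences are from RefSeq with build GRCm38.p6, which held promoters of 8 of the 10 genes, and run 5′ to 3′ on the gene's own strand: chr17:35194257-35194506 on the plus strand for Ltb, chr17:35202008-35202257 on the minus strand for Tnf, chr17:35205352-35205601 on the minus strand for Lta and chr3:27316827-27317076 on the plus strand for Tnfsf10. The start used for Lta is an internal one, so most of its window lies inside the annotated gene. Capitals mark matches, on either strand, to the motifs named after the sequences.
Ltb: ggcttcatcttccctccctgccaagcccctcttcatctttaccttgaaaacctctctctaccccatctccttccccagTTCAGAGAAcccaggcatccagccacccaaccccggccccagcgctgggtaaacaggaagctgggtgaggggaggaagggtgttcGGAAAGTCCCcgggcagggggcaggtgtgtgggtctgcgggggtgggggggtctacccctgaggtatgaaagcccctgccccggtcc
Tnf: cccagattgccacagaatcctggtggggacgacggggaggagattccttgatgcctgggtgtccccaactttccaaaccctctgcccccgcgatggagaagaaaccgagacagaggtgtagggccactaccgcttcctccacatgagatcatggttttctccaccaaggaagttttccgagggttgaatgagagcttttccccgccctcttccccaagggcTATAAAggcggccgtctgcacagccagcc
Lta: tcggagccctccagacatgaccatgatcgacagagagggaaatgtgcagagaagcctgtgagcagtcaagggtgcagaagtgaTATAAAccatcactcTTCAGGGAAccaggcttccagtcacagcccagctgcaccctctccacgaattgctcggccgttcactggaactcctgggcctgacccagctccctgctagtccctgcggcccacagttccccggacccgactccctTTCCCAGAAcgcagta
Tnfsf10: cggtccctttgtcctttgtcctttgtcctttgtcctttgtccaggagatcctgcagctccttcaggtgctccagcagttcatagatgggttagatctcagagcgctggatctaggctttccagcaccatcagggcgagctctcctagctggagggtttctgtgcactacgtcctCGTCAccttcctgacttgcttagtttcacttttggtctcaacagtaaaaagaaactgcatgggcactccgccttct

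The motifs searched were the kB consensus bound by NF-kB, the cAMP response element TGACGTCA and the shorter TGACG within it (marked only outside the full element), the AP-1 motif TGANTCA, the core of the interferon-stimulated response element (GAAA, any NN and GAAA in a row), the gamma-activated site TTCNNNGAA of STAT factors and the TATA box TATAAA. The Ltb promoter held 1 kB match, 87 to 78 bases before the start, and 7.25% of the 32851 mouse promoters of this length hold one. Tnf held a TATA box 29 to 24 bases before the start (12.4% of promoters) and no match to the other motifs in these 250 bases. Lta held a TATA box 167 to 162 bases before the start and gamma-activated sites starting 152 and 16 bases before it, and Ltb held 1 such site, 172 bases before the start (7.02% of promoters). The Tnfsf10 promoter held the letters TGACG on the opposite strand, 76 to 72 bases before the start (17.8% of promoters, full elements included). No match in a window says only that these letters are not in it, and none of these matches was tested for binding.

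Oligomeric Aβ42 alone, set against vehicle, raised 4 of the 10 ligand genes and lowered 1. Tnf, the founding cytokine of the family, rose 15.4-fold, Tnfsf9, which encodes the ligand of the T cell costimulatory receptor 4-1BB, rose 8.69-fold, Tnfsf10, which encodes the death ligand TRAIL, rose 2.98-fold, and Tnfsf15, which encodes TL1A, rose 1.62-fold. Tnfsf13b, which encodes the B cell survival factor BAFF, fell 1.22-fold. Lta, Ltb, Tnfsf4, Tnfsf8 and Tnfsf14 did not pass. The 5 of 10 that passed stand beside 25.6% of all genes that passed in this comparison, and the median change of the 10 genes was 0.16, against 0.02 over all genes.

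Tnf was measured at 13.39, 13.36 and 13.40 with Aβ42 alone, and at 9.33, 9.36 and 9.62 in vehicle. Every Aβ42 array thus lay far above every vehicle array, and the change was 3.95 ± 0.09 (adjusted p = 5.67e-12). The Aβ42 values of Tnf lie close to the highest value on any array (13.95), where the scale of an array may flatten; whether it does so here was not tested. Tnfsf9 was measured at 9.58, 9.75 and 9.72 with Aβ42 alone, and at 6.54, 6.46 and 6.70 in vehicle. These groups were also wide apart, with a change of 3.12 ± 0.11 (adjusted p = 1.80e-10).

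Tnfsf10 was measured at 7.09, 7.66 and 7.94 with Aβ42 alone, and at 5.82, 6.03 and 6.12 in vehicle. The groups did not overlap, but the Aβ42 arrays spread more (SD 0.44) than those of the other 9 ligand genes in that group, and the change was 1.57 ± 0.28 (adjusted p = 0.000866). The litter of replicate 1 gave the lowest value and that of replicate 3 the highest in all 4 groups, and within a litter Tnfsf10 was higher with Aβ42 alone by 1.27, 1.63 and 1.83. Tnfsf15, whose product binds death receptor DR3 on T cells and innate lymphocytes, was measured at 7.22, 7.25 and 7.21 with Aβ42 alone, and at 6.56, 6.68 and 6.35 in vehicle. The Aβ42 arrays were nearly alike and all above vehicle, and the change was 0.70 ± 0.07 (adjusted p = 7.14e-06). Tnfsf13b was measured at 6.99, 6.90 and 6.93 with Aβ42 alone, and at 7.25, 7.16 and 7.28 in vehicle. All Aβ42 arrays lay below all vehicle arrays, and the change was -0.29 ± 0.06 (adjusted p = 0.00342).

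Lta encodes lymphotoxin alpha, which binds the same receptors as TNF, and its values were 6.56, 6.57 and 6.52 with Aβ42 alone, and 6.29, 6.54 and 6.33 in vehicle. Vehicle replicate 2 overlapped the Aβ42 arrays. The change was 0.16 ± 0.07 (adjusted p = 0.127, unadjusted p = 0.0411), and without vehicle replicate 2 it was 0.24 (adjusted p = 0.0140), the only alternative under which Lta passed. Ltb, which encodes the membrane anchor of the lymphotoxin heterotrimer, was at 7.00, 6.87 and 7.06 with Aβ42 alone, and at 6.78, 6.91 and 6.76 in vehicle. Replicate 2 again overlapped, and the change was 0.16 ± 0.07 (adjusted p = 0.121). Of the 3 neighbours on chromosome 17, Tnf alone passed, and the 95% intervals of the changes of Lta (0.01 to 0.32) and Ltb (0.01 to 0.30) end far below that of Tnf (3.76 to 4.14). Lta and Ltb are among the dim genes, so their intervals limit the change in signal and not that in the transcript. T cell markers, which Lta and Ltb would accompany in lymphocytes, averaged 6.08 to 6.17 with Aβ42 alone and 6.03 to 6.20 in vehicle over the 9 measured, and B cell markers 6.00 to 6.13 and 5.88 to 6.07 over the 7 measured. Of these 16 markers only Cd5 (0.34 ± 0.07) and Ms4a1 (0.27 ± 0.08) passed, both higher, beside 10.7% of all genes that rose. The part of these markers in the values of Lta and Ltb was not tested.

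The remaining 3 genes are also among the dim ones, so the same limit holds for their values. Tnfsf14, which encodes LIGHT, a ligand of the receptors HVEM and LTBR, changed by 0.14 ± 0.08 (95% interval -0.04 to 0.32, adjusted p = 0.268). Tnfsf8, the CD30 ligand gene, changed by 0.02 ± 0.07 (-0.13 to 0.17, adjusted p = 0.891), and Tnfsf4, the gene of the OX40 ligand of T cell costimulation, by 0.01 ± 0.06 (-0.12 to 0.15, adjusted p = 0.913). Over the 4 groups Tnfsf4 ranged from 4.94 to 5.20, Tnfsf8 from 4.33 to 4.74 and Tnfsf14 from 5.65 to 6.04. Groups did not overlap for 5 of the 10 ligand genes, namely those that passed, beside 35% of all genes.

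**Figure D1:**
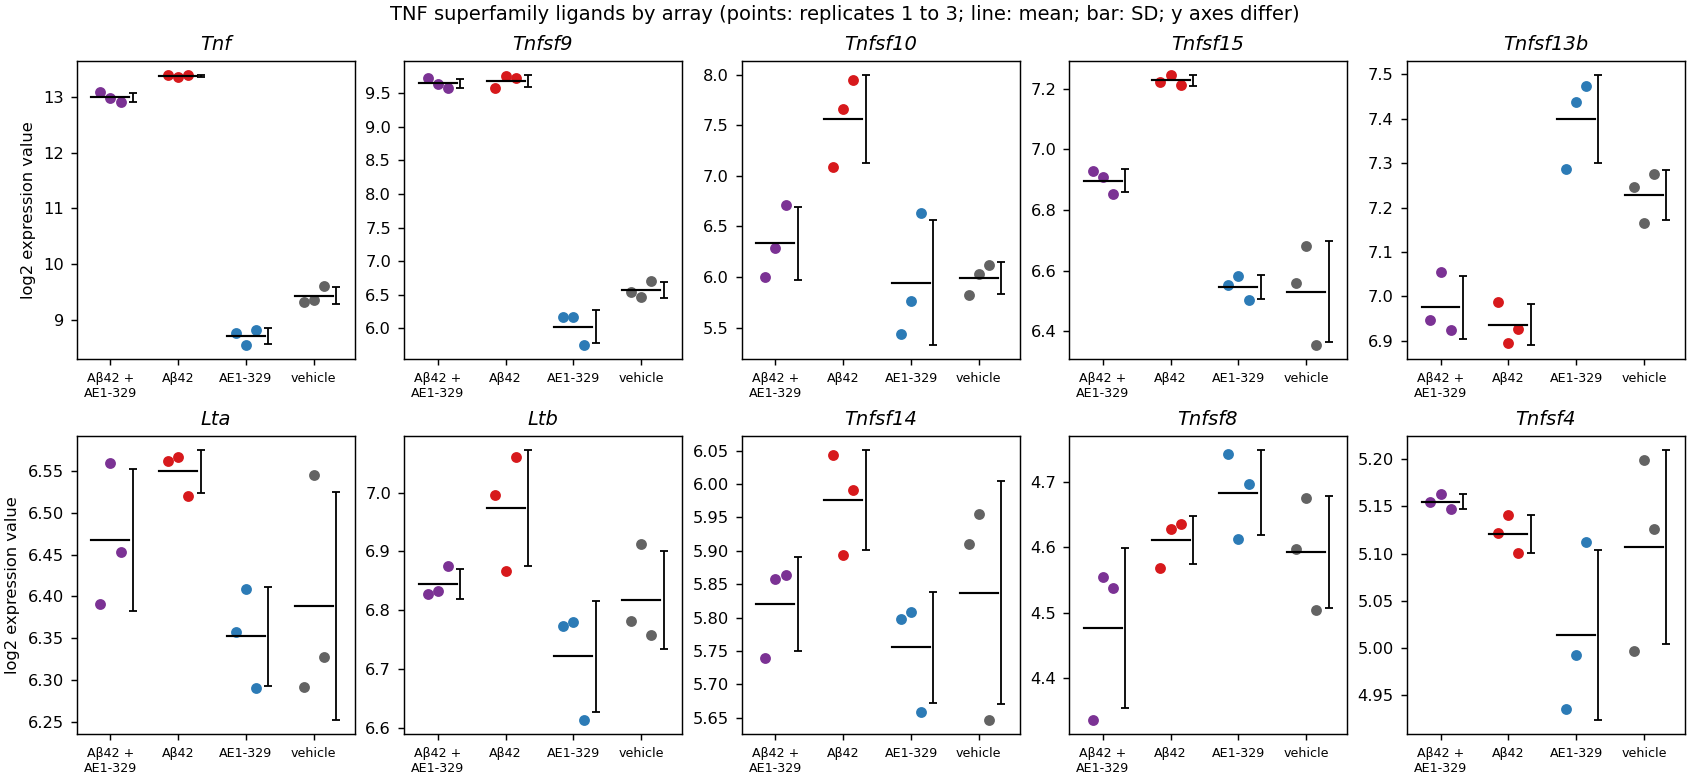
Log2 expression values of the 10 ligand genes on every array, grouped by treatment, with the mean (line) and the SD (bar) of 3 arrays per group; the y axes differ between panels. Tnf, Tnfsf9 and Tnfsf15 are high in both Aβ42 groups, Tnfsf10 is high with Aβ42 alone, and Tnfsf13b is low in both Aβ42 groups.

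Set against Aβ42 alone, the combined treatment shows what the EP4 agonist changed in cells given Aβ42. Whether that differs from its effect without Aβ42 is a separate question, taken up with the interaction below. With AE1-329 added, 3 of the 10 ligand genes fell and none rose, beside 11% of all genes that passed in either direction and 5.04% that fell. Tnfsf10 fell 2.35-fold, Tnf 1.31-fold and Tnfsf15 1.26-fold. Tnfsf9, 8.69-fold higher with Aβ42 alone, showed no detectable difference. The median change of the 10 genes was -0.13, against -0.02 over all genes. This comparison and that of Aβ42 alone with vehicle share the arrays of Aβ42 alone. A value high by chance on those arrays would add both to a rise with Aβ42 and to a fall with AE1-329.

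Tnfsf10 was at 5.99, 6.28 and 6.71 with both agents, all below the 7.09, 7.66 and 7.94 of Aβ42 alone. The change was -1.23 ± 0.28 (adjusted p = 0.0121), and within a litter the differences were -1.09, -1.37 and -1.23. It no longer passed once replicate 1 of both agents (-1.06, adjusted p = 0.0614) or replicate 3 of Aβ42 alone (-1.04, adjusted p = 0.0624) was left out. Those fits did not use the pairing by litter. With all arrays and the litter as a replicate block in limma, the change of Tnfsf10 passed at adjusted p = 6.37e-05. Tnf was at 13.09, 12.97 and 12.92 with both agents, against 13.39, 13.36 and 13.40 with Aβ42 alone. The groups did not overlap, and the differences within a litter were -0.31, -0.39 and -0.48, so the change was -0.39 ± 0.09 (adjusted p = 0.0100). With replicate 3 of both agents left out it did not pass (-0.35, adjusted p = 0.0511). Both groups lie near the highest value on any array, so the possible flattening of the scale named above also bears on this fall. It bears equally on the interaction of Tnf given below, and its part in either was not tested. Tnfsf15 was at 6.93, 6.91 and 6.85 with both agents, against 7.22, 7.25 and 7.21 with Aβ42 alone. The change of -0.33 ± 0.07 (adjusted p = 0.00867) passed under all 18 alternatives, with differences within a litter of -0.29, -0.34 and -0.36.

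Tnfsf9 was at 9.72, 9.63 and 9.58 with both agents, which overlapped the 9.58, 9.75 and 9.72 of Aβ42 alone. Its change was -0.04 ± 0.11 (95% interval -0.27 to 0.19, adjusted p = 0.903). Tnfsf13b, Lta, Ltb, Tnfsf4, Tnfsf8 and Tnfsf14 did not pass either, with changes between -0.16 (Tnfsf14) and 0.04 (Tnfsf13b) and adjusted p from 0.307 to 0.847. Groups did not overlap for 6 of the 10 genes, 5 lower and 1 higher, beside 32% of all genes. In addition to the 3 that passed these were Tnfsf8 and Tnfsf14, both lower in all arrays with the agonist by less than 0.2 on average, and Tnfsf4, higher by 0.03.

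AE1-329 alone, set against vehicle, lowered 2 of the 10 ligand genes, Tnf and Tnfsf9, and raised none, beside 10.2% of all genes that passed in either direction, 4.71% that rose and 5.45% that fell. Tnf was at 8.76, 8.54 and 8.81 with AE1-329 alone, all below the 9.33, 9.36 and 9.62 of vehicle, and fell 1.66-fold (-0.73 ± 0.09, adjusted p = 0.000129). Tnfsf9 was at 6.17, 6.16 and 5.75 with AE1-329 alone, against 6.54, 6.46 and 6.70 in vehicle, and fell 1.45-fold (-0.54 ± 0.11, adjusted p = 0.00481). Replicate 3, the array that stood apart, was the lowest for Tnfsf9, and without it the changes were -0.40 for Tnfsf9 (adjusted p = 0.0102) and -0.78 for Tnf (adjusted p = 0.000379). The call of Tnf held under all 19 alternatives. That of Tnfsf9 held under the same 19, of which the restriction to genes above the median level lends no support, since Tnfsf9 met it through its Aβ42 arrays.

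Tnfsf10 was at 5.43, 5.76 and 6.63 with AE1-329 alone, against 5.82, 6.03 and 6.12 in vehicle. It is among the dim genes, so whether a fall of its transcript would show at these values is unknown. Replicate 3 lay above all vehicle arrays and the other two below them, so that the change was -0.05 ± 0.28 with a wide 95% interval of -0.66 to 0.56 (adjusted p = 0.960), and -0.39 without that replicate (adjusted p = 0.467). Tnfsf15 changed by 0.02 ± 0.07 (adjusted p = 0.950). Tnfsf13b was at 7.29, 7.44 and 7.47 with AE1-329 alone, above the 7.25, 7.16 and 7.28 of vehicle without overlap, but its change of 0.17 ± 0.06 did not pass (adjusted p = 0.120). The other 5 genes lay between -0.10 (Ltb) and 0.09 (Tnfsf8), with adjusted p from 0.466 to 0.865. Groups did not overlap for 3 of the 10 genes, 1 higher (10.4% of all genes) and 2 lower, beside 22.9% of all genes in either direction, and the median change of the 10 was -0.06, against -0.01 over all genes.

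**Figure D2:**
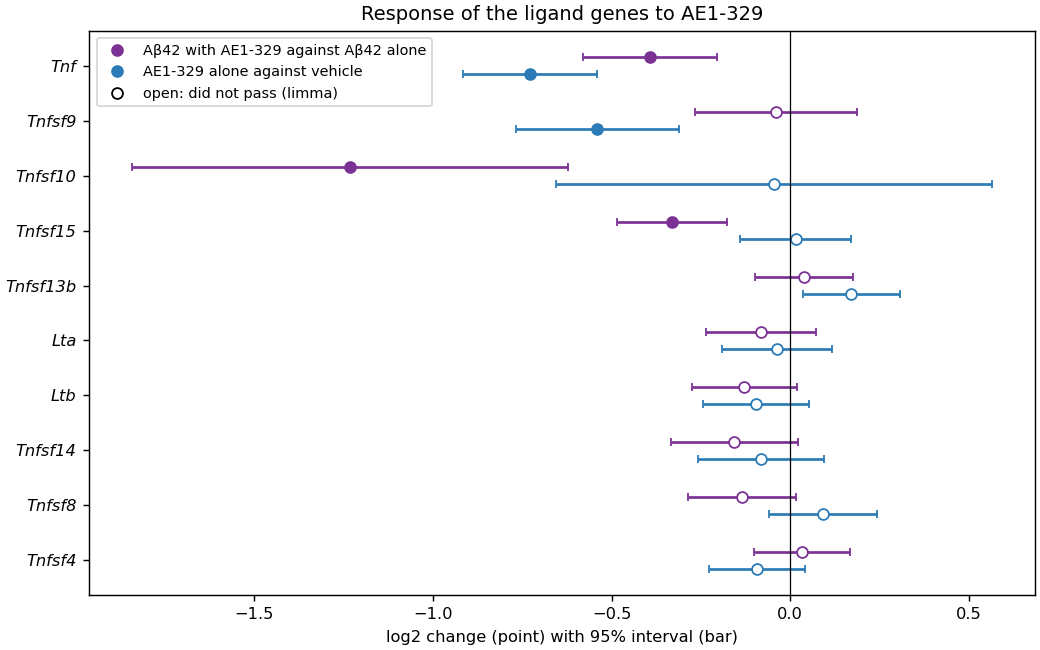
Log2 change of each ligand gene with AE1-329, in cells also given Aβ42 (purple) and without Aβ42 (blue), with 95% intervals; filled points passed limma's test and open points did not. Tnf is below 0 in both settings, Tnfsf9 only without Aβ42 by the test, and Tnfsf10 and Tnfsf15 only with it. In the fit without a litter block, the test of the difference between the settings passed for none of the 10 genes. With the litter as a replicate block in limma that test passed for Tnfsf10 (adjusted p = 0.00404).

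Whether the agonist acted differently in the presence of Aβ42 was tested by the interaction, the change with AE1-329 in Aβ42-treated cells minus that in cells without Aβ42. None of the 10 ligand genes passed in limma, beside 1.95% of all genes that passed, of which those with a negative value were 0.918% of all genes. The ligand genes with the smallest p are given next. Tnfsf15 came to -0.35 ± 0.10 (95% interval -0.56 to -0.13, adjusted p = 0.131), Tnfsf9 to 0.50 ± 0.15 (0.18 to 0.82, adjusted p = 0.140), Tnfsf10 to -1.19 ± 0.40 (-2.05 to -0.32, adjusted p = 0.222), Tnf to 0.34 ± 0.12 (0.07 to 0.60, adjusted p = 0.281) and Tnfsf8 to -0.23 ± 0.10 (-0.44 to -0.01, adjusted p = 0.422). With the litter as a replicate block Tnfsf10 passed (-1.19, adjusted p = 0.00404), and Tnfsf15 passed after the arrays were quantile normalized again (-0.36, adjusted p = 0.0499) and without vehicle replicate 2 (-0.42, adjusted p = 0.0320). For the other 8 ligand genes the interaction passed under no alternative tried. Leaving out replicate 3 of AE1-329 alone, the array that stood apart, gave -0.84 for Tnfsf10 (adjusted p = 0.360) and 0.36 for Tnfsf9 (adjusted p = 0.186). For both genes this was the smallest interaction in size under any alternative.

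In cells that received AE1-329, Aβ42 raised 3 of the 10 ligand genes and lowered 2, beside 22% of all genes that passed, 9.77% that rose and 12.2% that fell. Tnf rose 19.5-fold (4.29 ± 0.09, adjusted p = 3.76e-12), Tnfsf9 12.3-fold (3.62 ± 0.11, adjusted p = 5.98e-11) and Tnfsf15 1.28-fold (0.35 ± 0.07, adjusted p = 0.00263). Tnfsf13b fell 1.34-fold (-0.42 ± 0.06, adjusted p = 0.000230). Tnfsf8 fell 1.16-fold (-0.21 ± 0.07, adjusted p = 0.0484), a call that 10 of 18 alternatives ended, at adjusted p up to 0.224. Tnfsf10 changed by 0.39 ± 0.28 and did not pass (adjusted p = 0.418, 0.0521 without replicate 3 of AE1-329 alone, where the change was 0.73). Its groups overlapped through that replicate. Groups did not overlap for 7 of the 10 genes, 5 higher and 2 lower, beside 40.1% of all genes in either direction and 20.7% lower. This comparison and that of AE1-329 alone with vehicle share the AE1-329 arrays.

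**Figure D3:**
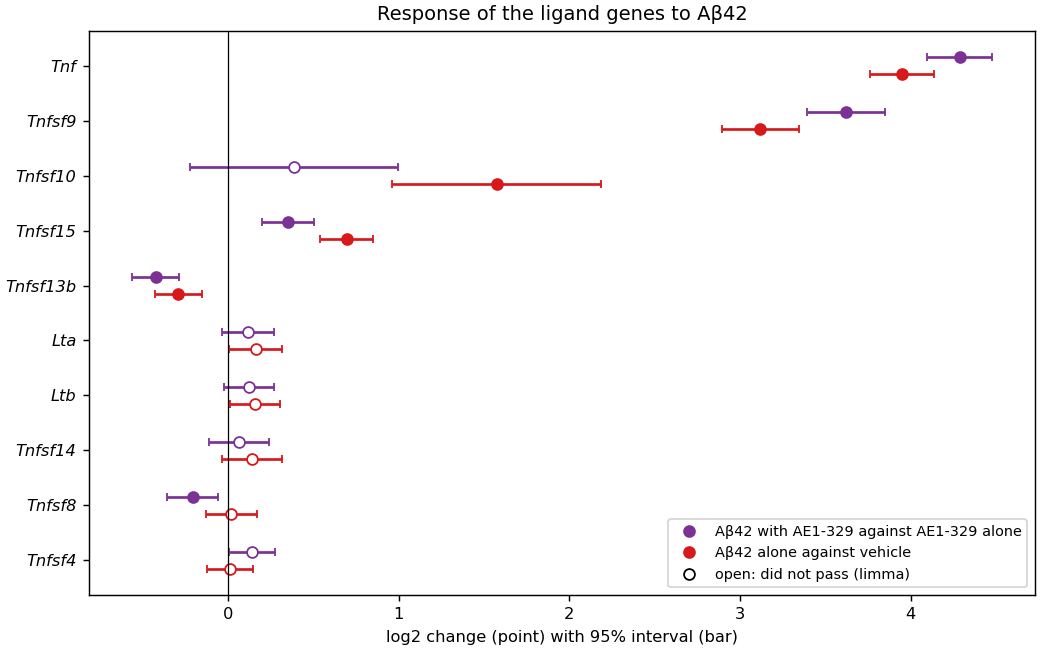
Log2 change of each ligand gene with Aβ42, in cells also given AE1-329 (purple) and without it (red), with 95% intervals; filled points passed limma's test and open points did not. Tnf and Tnfsf9 lie above 3 in both settings, and Tnfsf10 passed only without the agonist.

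Set against vehicle, the combined treatment left 4 of the 10 ligand genes changed, 3 higher and 1 lower, beside 21.2% of all genes that passed, 9.27% that rose and 11.9% that fell. Tnf was 11.8-fold higher (3.56 ± 0.09), Tnfsf9 8.46-fold higher (3.08 ± 0.11) and Tnfsf15 1.29-fold higher (0.37 ± 0.07, adjusted p = 0.00198), and Tnfsf13b was 1.19-fold lower (-0.25 ± 0.06, adjusted p = 0.0104). Tnfsf10 did not pass (0.34 ± 0.28, adjusted p = 0.511, and 0.0898 with the replicate block), with values of 5.99, 6.28 and 6.71 for both agents and 5.82, 6.03 and 6.12 for vehicle, which overlap. Groups did not overlap for the 4 genes that passed, beside 30.3% of all genes.

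The order of the 4 groups differed between the ligand genes. Tnf averaged 12.99 ± 0.09 with both agents, 13.38 ± 0.02 with Aβ42 alone, 8.70 ± 0.14 with AE1-329 alone and 9.43 ± 0.16 in vehicle (SD, n = 3 each). From highest to lowest its groups ran Aβ42 alone, both agents, vehicle and AE1-329 alone, and no neighbours in that order overlapped. Tnfsf9, at 9.65 ± 0.07 with both agents, 9.69 ± 0.09 with Aβ42 alone, 6.03 ± 0.24 with AE1-329 alone and 6.57 ± 0.12 in vehicle, had the same order, but its highest pair overlapped. Tnfsf10, at 6.33 ± 0.36 with both agents, 7.56 ± 0.44 with Aβ42 alone, 5.94 ± 0.62 with AE1-329 alone and 5.99 ± 0.15 in vehicle, was clear of overlap for Aβ42 alone, while the other 3 groups overlapped with their neighbours. Tnfsf15, at 6.90 ± 0.04 with both agents, 7.23 ± 0.02 with Aβ42 alone, 6.55 ± 0.04 with AE1-329 alone and 6.53 ± 0.16 in vehicle, was highest with Aβ42 alone and next with both agents, each free of overlap, and the remaining pair overlapped. Tnfsf13b, at 6.98 ± 0.07 with both agents, 6.94 ± 0.05 with Aβ42 alone, 7.40 ± 0.10 with AE1-329 alone and 7.23 ± 0.06 in vehicle, was highest with AE1-329 alone and next in vehicle, and its lowest pair, the Aβ42 groups, overlapped. Lta and Ltb had the order of Tnf, with means within 6.35 to 6.55 and 6.72 to 6.97, but every neighbouring pair overlapped. Every neighbouring pair of groups also overlapped for Tnfsf8 and Tnfsf14, and for Tnfsf4 the pair of both agents and Aβ42 alone was the exception.

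**Figure D4:**
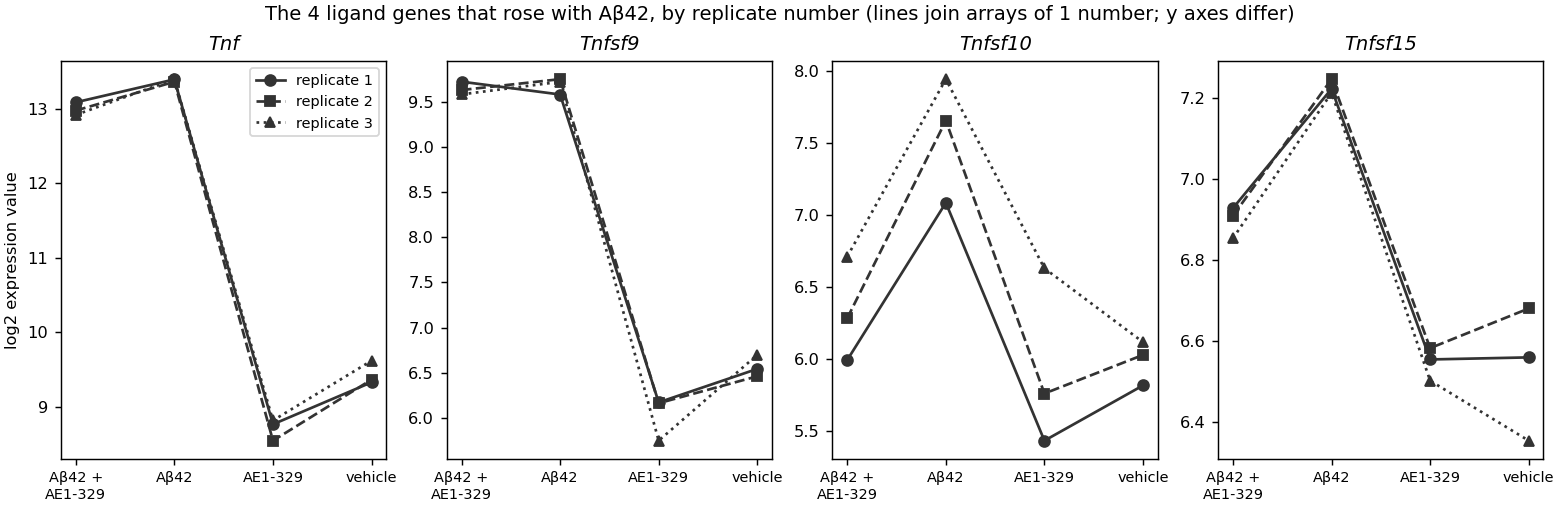
Log2 expression values of the 4 ligand genes that rose with Aβ42, with 1 line for each replicate number across the 4 treatments; the y axes differ between panels. For Tnfsf10 the lines of the 3 litters keep their order in every treatment, while for Tnf and Tnfsf15 they lie close together in the Aβ42 groups.

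Over the 12 arrays Tnf and Tnfsf9 followed each other closely (Pearson r = 0.995). Each ran opposite to Tnfsf13b (-0.93 for Tnf and -0.94 for Tnfsf9), and the coefficients with Tnfsf15 were 0.89 for Tnf and 0.88 for Tnfsf9. Likeness was ranked among 903 other genes whose group means spanned at least 1 log2 unit. Genes named by a Gm number or ending in Rik, microRNA genes and olfactory receptor genes were left out. The genes with the pattern most like Tnf were Susd6 (r = 0.998), Ppp1r15a (0.997) and Zc3h12c (0.997). Those most like Tnfsf9 were Dusp16 (0.997), Klf7 (0.995) and Tnf itself (0.995). Those most like Tnfsf10 were Ifi213 (0.98), Zbp1 (0.97) and Phf11d (0.97), of which Zbp1, a sensor of Z-form nucleic acids, is known to be induced by interferon. The arrays of 1 treatment share that treatment, so these coefficients describe the 4 groups as much as the 12 arrays.

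Of the other ligands of the superfamily, 6 had a probe set of their own, and Cd70 alone rose with Aβ42 alone, by 0.32 ± 0.07 (adjusted p = 0.00508), beside 10.7% of all genes that rose. Cd70, the ligand of the T cell receptor CD27, lies between Tnfsf9 and Tnfsf14 on chromosome 17. Fasl (0.10 ± 0.06), Tnfsf11 (0.10 ± 0.08), Tnfsf18 (0.07 ± 0.07), Cd40lg (0.05 ± 0.07) and Eda (-0.01 ± 0.06) did not pass. When AE1-329 was added to Aβ42, Tnfsf18, which encodes the GITR ligand, fell by 0.28 ± 0.07 (adjusted p = 0.0158) and the other 5 did not pass, beside 11% of all genes that passed. The probe sets of Tnfsf12 and Tnfsf13 carried several symbols and were not used here.

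Among the receptors of the 10 ligands, 2 of 15 rose with Aβ42 alone, 3 fell and 10 did not pass. These 5 of 15 are near the 25.6% of all genes that passed (10.7% rose and 14.8% fell), with a median change of 0.07 against 0.02 over all genes. Tnfrsf1b, which encodes TNF receptor type 2 of immune cells, rose 2.44-fold (1.29 ± 0.09, adjusted p = 1.12e-07), while Tnfrsf1a, the widely expressed death domain receptor of TNF, did not pass (0.28 ± 0.11, adjusted p = 0.102). Tnfrsf14, the gene of HVEM, a receptor of LIGHT, rose 1.66-fold (0.73 ± 0.08, adjusted p = 1.14e-05), and Ltbr, the receptor of LIGHT and membrane lymphotoxin, did not pass (0.09 ± 0.10, adjusted p = 0.559). Of the mouse decoy receptors of TRAIL, Tnfrsf23 fell 1.67-fold (-0.74 ± 0.05, adjusted p = 2.97e-07) and Tnfrsf22 fell 1.41-fold (-0.49 ± 0.08, adjusted p = 0.000611). Tnfrsf11b, also in the list of receptors, did not pass (0.0032 ± 0.09, adjusted p = 0.987). The death receptor of TRAIL, Tnfrsf10b, did not pass (0.15 ± 0.12, adjusted p = 0.426), nor did Tnfrsf9, the receptor of the Tnfsf9 product (0.07 ± 0.07, adjusted p = 0.565), or Tnfrsf25, which encodes DR3 (0.16 ± 0.07, adjusted p = 0.157). Of the BAFF receptors Tnfrsf13b fell by 0.16 ± 0.05 (adjusted p = 0.0459), and Tnfrsf13c (0.02 ± 0.06) and Tnfrsf17 (0.01 ± 0.07) did not pass.

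With AE1-329 on top of Aβ42, 1 of the 15 receptors rose and none fell, about the share of all genes (11% passed and 5.99% rose). This was Tnfrsf23, at 0.60 ± 0.05 (adjusted p = 1.19e-05), and with AE1-329 alone it rose by 0.73 ± 0.05 (adjusted p = 2.19e-06). In group means Tnfrsf23 stood at 9.47 ± 0.07 with both agents, 8.87 ± 0.03 with Aβ42 alone, 10.35 ± 0.06 with AE1-329 alone and 9.61 ± 0.04 in vehicle (SD, n = 3 each), so that AE1-329 raised a TRAIL decoy receptor in both settings, and its interaction was -0.13 ± 0.08 (adjusted p = 0.640). AE1-329 alone also raised Tnfrsf1b by 0.34 ± 0.09 (adjusted p = 0.0233) and lowered Tnfrsf17 by 0.29 ± 0.07 (adjusted p = 0.0149), and 12 of 15 did not pass, beside 10.2% of all genes that passed.

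**Figure D5:**
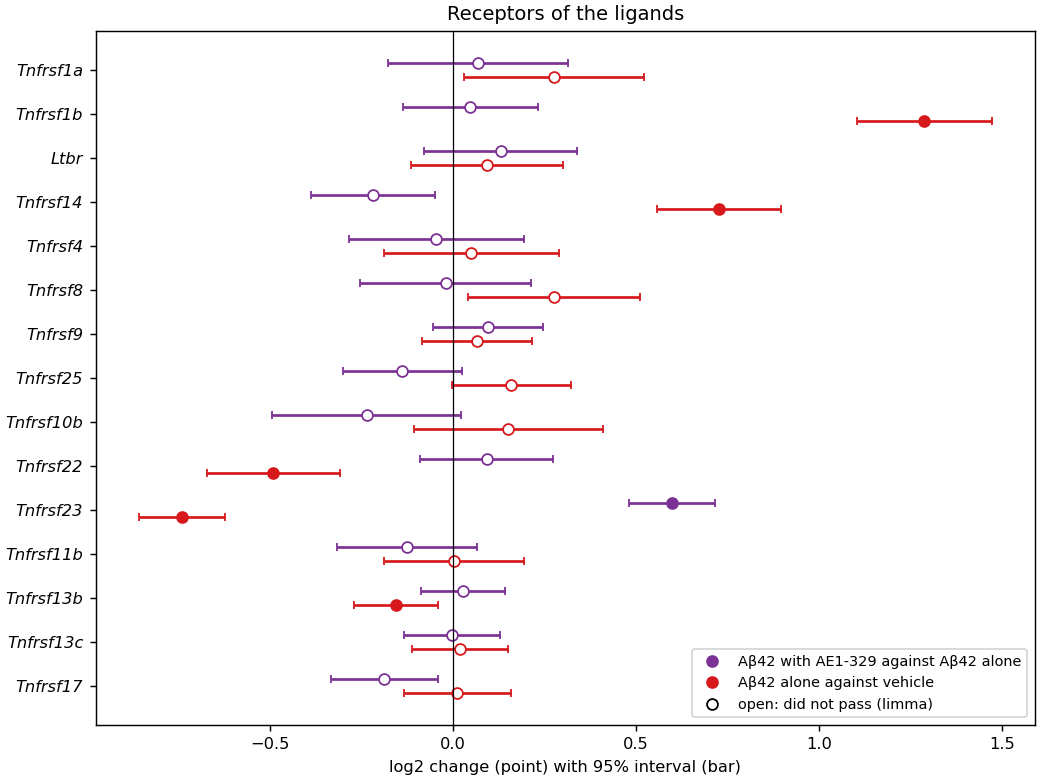
Log2 change of the 15 receptor genes with AE1-329 added to Aβ42 (purple) and with Aβ42 alone against vehicle (red), with 95% intervals; filled points passed limma's test and open points did not. Tnfrsf1b and Tnfrsf14 rose and Tnfrsf22, Tnfrsf23 and Tnfrsf13b fell with Aβ42 alone, and Tnfrsf23 rose when AE1-329 was added.

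Of 8 genes of ligand shedding and processing 5 rose, 2 fell and 1 did not pass with Aβ42 alone, beside 25.6% of all genes that passed (10.7% rose and 14.8% fell). Their median change was 0.46, against 0.02 over all genes. Adam17, the protease that sheds TNF, rose by 0.87 ± 0.05 (adjusted p = 3.12e-08), and Rhbdf2, which carries ADAM17 to the surface of macrophages, by 1.47 ± 0.08 (adjusted p = 1.47e-08). The related Rhbdf1 rose by 0.62 ± 0.07 and Sppl2a, a protease that cuts the membrane stub of TNF, by 0.63 ± 0.05 (adjusted p = 1.15e-05 and 9.24e-07). The sheddase gene Adam10 fell by 0.34 ± 0.05 (adjusted p = 0.000392) and Sppl2b, a relative of Sppl2a, fell by 0.27 ± 0.06 (adjusted p = 0.00503). When AE1-329 was added to Aβ42, Adam17 fell by 0.32 ± 0.05 (adjusted p = 0.00103) and Rhbdf1 fell by 0.48 ± 0.07 (adjusted p = 0.000424), and the other 6 did not pass, Rhbdf2 among them (-0.16 ± 0.08, adjusted p = 0.281), beside 11% of all genes that passed. With AE1-329 alone none of the 8 passed in limma, beside 10.2% of all genes that passed.

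A list of 11 factors of Tnf mRNA decay and stability held binders of AU-rich elements, stem-loop binders such as Zc3h12a and Rc3h1, and the kinase gene Mapkapk2. With Aβ42 alone 7 of the 11 rose, 3 fell and 1 did not pass, beside 25.6% of all genes that passed, and their median change was 0.21, against 0.02 over all genes. Zfp36, which encodes tristetraprolin, the decay factor of Tnf mRNA, rose by 0.94 ± 0.07 (adjusted p = 4.20e-07), and is named here although the p of 4 others was smaller. Its relatives Zfp36l1 and Zfp36l2 changed by -3.00 ± 0.14 and -1.44 ± 0.07 (adjusted p = 2.79e-09 and 5.47e-09), and the endonuclease gene Zc3h12a rose by 2.45 ± 0.08 (adjusted p = 1.36e-10). Mapkapk2, the kinase that inactivates tristetraprolin, rose by 1.26 ± 0.09 (adjusted p = 1.63e-07). Added to Aβ42, AE1-329 raised Zfp36l1 by 0.71 ± 0.14 (adjusted p = 0.00401), Zfp36l2 by 0.58 ± 0.07 (adjusted p = 0.000134) and Tia1, a translational repressor of Tnf mRNA, by 0.24 ± 0.07 (adjusted p = 0.0313), and lowered Rc3h1, the gene of the decay factor roquin, by 0.22 ± 0.06 (adjusted p = 0.0290), so that 4 of 11 passed beside 11% of all genes. With AE1-329 alone Zfp36 rose by 0.31 ± 0.07 (adjusted p = 0.0143), Tia1 rose by 0.26 ± 0.07 (adjusted p = 0.0238), and Elavl1, a stabilizing factor, fell by 0.21 ± 0.06 (adjusted p = 0.0314), 3 of 11 beside 10.2% of all genes. For Zfp36 and Rc3h1 the interaction passed, at -0.48 ± 0.10 (adjusted p = 0.0290) and -0.38 ± 0.08 (adjusted p = 0.0368).

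Of the adaptors and signal transducers of TNF receptors 12 of 26 measured rose with Aβ42 alone, 1 fell and 13 did not pass, beside 25.6% of all genes that passed and 10.7% that rose, with a median change of 0.17 against 0.02 over all genes. The 4 with the smallest p were Tnfaip3, which encodes the ubiquitin-editing brake A20 (1.94 ± 0.06), its partner Tnip1 (1.91 ± 0.07), Cflar, an inhibitor of caspase 8 (1.98 ± 0.08), and Birc3, an inhibitor of apoptosis (2.25 ± 0.09), with adjusted p between 5.55e-11 and 7.12e-10. Added to Aβ42, AE1-329 raised 4 of the 26 and lowered 2, beside 11% of all genes that passed: Traf1 rose by 0.73 ± 0.11 (adjusted p = 0.000923) and Tnip1 by 0.29 ± 0.07 (adjusted p = 0.0196), and Otulin and Rnf31, which cut and build linear ubiquitin chains, changed by -0.42 ± 0.06 (adjusted p = 0.000468) and -0.26 ± 0.06 (adjusted p = 0.0137). With AE1-329 alone 3 rose and 2 fell, beside 10.2% of all genes that passed. Tnfaip3 fell by 0.97 ± 0.06 (adjusted p = 2.51e-07) and Otulin by 0.35 ± 0.06, and Map3k14, which encodes the kinase NIK of non-canonical NF-kB signalling, rose by 0.41 ± 0.05 and Cflar by 0.34 ± 0.08. The interaction passed for Tnfaip3 (0.89 ± 0.08, adjusted p = 9.73e-05), Traf1 (0.97 ± 0.16, adjusted p = 0.00629) and Map3k14 (-0.34 ± 0.07, adjusted p = 0.0258). Of 7 further neighbours of Tnf on chromosome 17, Aif1, a marker of microglia that encodes Iba1, rose with Aβ42 alone by 0.46 ± 0.07, Prrc2a by 0.35 ± 0.06 and Nfkbil1 by 0.20 ± 0.05 (adjusted p = 0.000294, 0.000328 and 0.0139), while Ddx39b, Lst1, Atp6v1g2 and Bag6 did not pass, so that 3 of 7 rose beside 10.7% of all genes. When AE1-329 was added to Aβ42, Aif1 fell by 0.49 ± 0.07 (adjusted p = 0.000524) and the other 6 did not pass, beside 11% of all genes that passed.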

How the data were processed

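The authors deposited a log2 level for each probe set on each array. Per the submitters' processing notes RMA and Partek 6.5 were used, with no role or order stated; RMA usually includes quantile normalization, which makes changes relative to the bulk of genes. Array medians lay between 6.97 and 7.05, and no arrays were identical; precision is limited by having 3 arrays per group. The sources used here do not give a genome build, filters or a litter correction.

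Of 35556 probe sets, 21789 carried 1 gene symbol, 1621 several and 12146 none. The probe set with the highest mean was kept per gene. Group means of all 19938 genes, grouped by the array titles, were fitted with limma 3.58.1 in R 4.3.3 (lmFit, eBayes, 8 residual degrees of freedom, two-sided tests, Benjamini-Hochberg within a comparison, threshold 0.05), and the code was tested on simulated data. Members and lists were chosen with earlier results of these data known. The text gives all 10 ligand genes, the 4 genes of each list with the smallest p, receptors beside their ligands, and the 3 genes most like each ligand gene whose group means spanned at least 1 log2 unit. Motifs were chosen after the values were seen. Genes of the lists without a probe set of their own were not analysed here.

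The design text ties replicates to litters, so same-numbered arrays were taken as paired: their deviations from the group mean had an average correlation of 0.33 in 18 pairs (0.0044 to 0.54). For each of the 12 arrays, the best correlated array of another group carried the same number. Alternatives were the replicate block, only the groups compared, the mean of probe sets, quantile normalization, a trended robust prior, only genes above the median, all probe sets, and leaving out each array.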

Additional observations from a re-analysis of the deposited data

How the results depend on the processing

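Across 1082 repeats of single ligand gene results under the alternatives, 1047 kept direction and side of the threshold, 13 lost the call, 4 gained it and 18 turned direction. Those that turned had not passed, and none passed after turning. Many of these repeats could not move a change. Each ligand gene had 1 probe set, so the mean of probe sets gave the same values. The replicate block, and leaving out an array of a group not compared, kept the change and could alter only its p. The 1047 repeats, and the counts of alternatives passed above, are therefore not counts of independent checks. With only genes above the median level 2 ligand genes remained in the test, Tnf and Tnfsf9, and the counts that passed became 2 for Aβ42 alone against vehicle (5 otherwise), 1 for AE1-329 added to Aβ42 (3 otherwise), 2 for Aβ42 with AE1-329 against AE1-329 alone (5 otherwise) and 2 for the combined treatment against vehicle (4 otherwise), because the other 8 genes were not tested. For the interaction, 1 passed with the replicate block, 1 with quantile normalization again, and 0 to 1 when single arrays were left out, against 0 otherwise; the cause was not tested. The replicate block changed no other call of a ligand gene. With quantile normalization again the change of Tnfsf4 with Aβ42 alone was -0.0069. When single arrays were left out, these changes crossed 0: with Aβ42 alone Tnfsf4 (-0.0417 to 0.0596) and Tnfsf8 (-0.0257 to 0.0603); with AE1-329 added to Aβ42 Tnfsf13b (-0.001 to 0.0649); with AE1-329 alone Lta (-0.0843 to 0.0421), Tnfsf10 (-0.39 to 0.21) and Tnfsf15 (-0.0736 to 0.0895); with both agents against vehicle Ltb (-0.0019 to 0.0757), Tnfsf4 (-0.0076 to 0.0937) and Tnfsf14 (-0.11 to 0.0419); and in the interaction Lta (-0.12 to 0.0022), Ltb (-0.0874 to 0.0102) and Tnfsf14 (-0.13 to 0.0218).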
